A study of Xenopus laevis with 9 samples.

Results

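Solute carriers are membrane proteins that move ions, sugars, nucleotides, metals and metabolites across the cell surface and the membranes of organelles. In the kidney, carriers at the luminal and basal faces of the tubule cells recover filtered solutes and secrete organic acids and drugs. The slc25 family lines the inner mitochondrial membrane and exchanges nucleotides, phosphate and acids with the cytosol. Their transcripts were followed here in the Xenopus laevis kidney line XLK-WG through all probe sets (the array's groups of short probes for a transcript) whose gene symbol has the form of an slc gene. The slc7 and slc38 families, slc3a2, slc1a3, slc1a4, slc1a5, slc2a1 and slc16a3 were left out. This gave 96 genes of the 7531 genes with a probe set of their own, in 36 families, when the .L and .S copies that this frog carries of many genes are counted apart, or 84 when they are counted together. They were measured by 105 of the 15491 probe sets that are not controls. Not every symbol of this form stands for a carrier: slc9a3r1 encodes a scaffold protein that anchors carriers at the membrane, and slc25a46 is not known to transport.

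Cells at about 90% confluence received the solvent DMSO at 0.25%, 100 nM TCDD in DMSO or 100 nM FICZ in DMSO for 3 h, and total RNA of 3 biological replicates per group was measured on 9 Affymetrix arrays. Both compounds bind the aryl hydrocarbon receptor, a transcription factor: TCDD is the reference dioxin, and FICZ forms from tryptophan under light. All groups are the same line and received the same amount of solvent, and no untreated cells were included. Only the DMSO titles hold the letters CH, of unknown meaning here, and what they mark cannot be told apart from the vehicle.

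Values are log2 signals after quantile normalization, on which a difference of 1 is a doubling. Probe sets with a mean over the 9 arrays under the 25th percentile, a log2 signal of 4.88, were not tested. Of the slc probe sets 76 were tested, for 70 genes, and 29 lay below the filter. All differences come from 1 limma fit over 11618 probe sets with Benjamini-Hochberg adjustment over all of them and a threshold of 0.05. The array medians lay between 6.67 and 6.87 before normalization. DMSO replicate 2 stood apart: it held 22.6% of the variation within groups over all tested probe sets, and 22.6% over the slc probe sets. Of 19 kidney epithelium marker genes 8 had a probe set, and 4 of these reached the filter level, namely pax2.L, pax8.L, wt1.L and aqp2.S. Other probe sets of pax2.L were below it. Of 10 muscle and nerve marker genes 7 had a probe set, and 4 of these also reached the filter level. Reaching this level thus does not set kidney cells apart. The epithelial adhesion genes cdh1.S, epcam.L and epcam.S were below it, as was lhx1.L, a gene of the early kidney. Of 12 fibroblast markers 8 had a probe set and 5 reached the filter level, vim.L at 13.14 and col1a1.S at 10.42 with DMSO among them. The adhesion markers of epithelium were thus not seen above the filter level, and the cells are called here by the line's name.

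Carriers that mark segments of the nephron were below the filter. Of 16 such genes looked for, 4 had a probe set. The glucose carrier of the proximal tubule slc2a2.L had log2 signals of 2.59, 2.98 and 3.18 with DMSO. The organic anion carrier slc22a8.S, which takes up drugs from blood in mammals, gave 2.67, 1.18 and 2.73. The dicarboxylate carrier slc13a3.L gave 4.63, 4.56 and 4.83, and the anion exchanger slc4a1.L, of red cells and the collecting duct in mammals, gave 4.11, 4.22 and 4.18. None of the 4 was tested. With the ligands the higher group mean was 3.24 for slc2a2.L, 2.78 for slc22a8.S, 5.01 for slc13a3.L and 3.96 for slc4a1.L. Whether such signals lie above background is not known, because detection calls were not used here.

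No slc probe set changed past the threshold in any of the 3 comparisons. With TCDD against DMSO 0 of 76 passed by limma, where 0.0258% of all tested probe sets did, and the smallest adjusted p was 0.969. With FICZ against DMSO 0 of 76 passed, where 0.603% of all tested probe sets did, and the smallest adjusted p was 0.128, for slc20a1.L. With FICZ against TCDD 0 of 76 passed, where 0.207% of all did, and the smallest adjusted p was 0.151, for slc4a11.L. At an unadjusted p under 0.05 there were 2 slc probe sets with TCDD (2.63%, against 3.43% of all), 10 with FICZ (13.2%, against 7.39% of all) and 5 between the ligands (6.58%, against 3.08% of all). The median log2 change of the 76 was 0.02 with TCDD and 0.02 with FICZ, beside medians of 0.001 and -0.002 over all tested probe sets. Both comparisons share the DMSO arrays.

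The size of the changes was bounded for most of these genes. The 95% confidence interval of the log2 change, not adjusted for the number of probe sets, had a median width of 0.29 to either side. With TCDD it lay inside a 1.5-fold change in either direction for 65 of 76 probe sets, with FICZ for 61 and between the ligands for 61. It lay inside a 2-fold change for 75, 75 and 74. The exception against DMSO was the vesicular nucleotide carrier slc17a9.L in both comparisons, and between the ligands the exceptions were slc2a3.L and slc41a3.L.

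**Figure D1:**
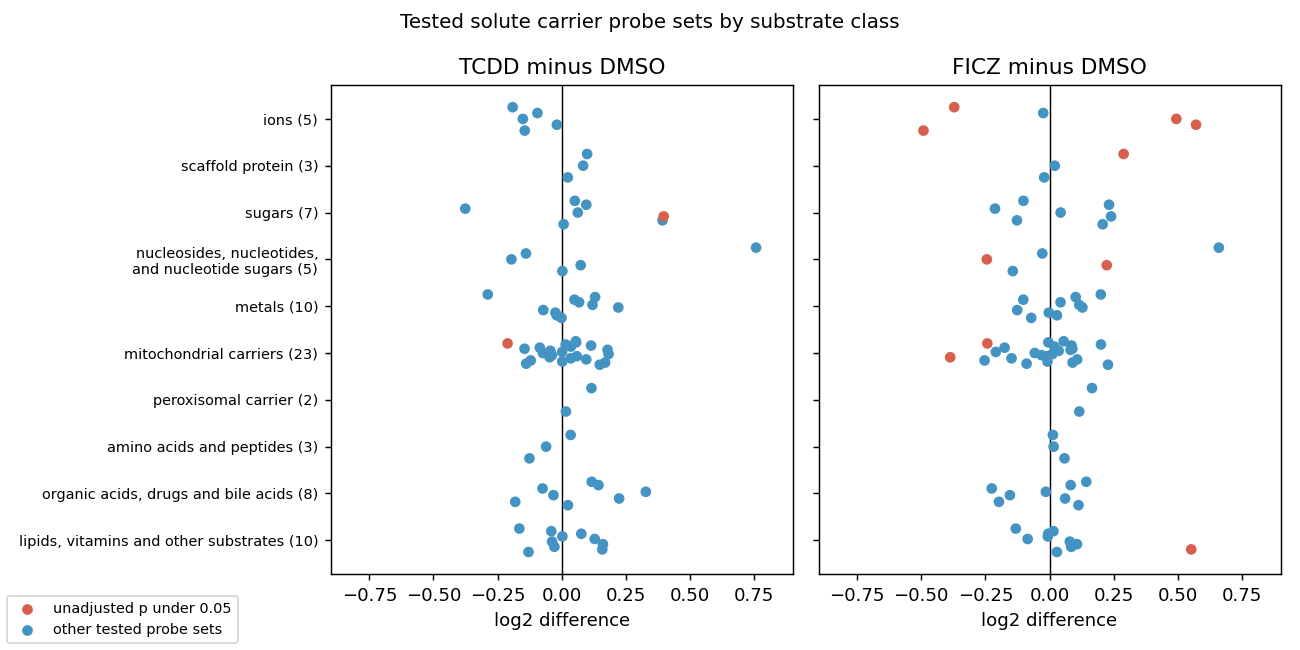
Log2 difference from DMSO of each of the 76 tested probe sets (points), by substrate class, with TCDD on the left and FICZ on the right, and the number of tested probe sets in brackets. Red points have an unadjusted p under 0.05. No point passed after adjustment, and 4 of the 5 ion carriers are red with FICZ. That count depends on the placing of slc13a4l.S inside the class and of slc9a3r1 outside it.

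Among the ion carriers 5 of 8 probe sets were tested and 0 passed in any comparison. With FICZ 4 of the 5 had an unadjusted p under 0.05, split between 2 higher and 2 lower, where 3.82% of all tested probe sets were higher and 3.56% lower at that p. This count depends on how the classes were drawn. By family number slc13a4l.S, 1 of the 4, would fall outside the class. The 3 tested slc9a3r1 probe sets, 1 of them with such a p, would fall inside it. slc20a1.L encodes a sodium-phosphate cotransporter. Its log2 signal was 8.97, 9.36 and 9.16 with DMSO, 8.90, 9.19 and 8.97 with TCDD, and 8.59, 8.63 and 8.79 with FICZ. Every FICZ array lay below every array of the other groups, while the DMSO and TCDD arrays overlapped. The mean went from 9.16 ± 0.20 (SD, n = 3) with DMSO to 8.67 ± 0.11 (SD, n = 3) with FICZ, a limma log2 difference of -0.49 (SE 0.12, adjusted p 0.128). With TCDD it differed from DMSO by -0.14 (adjusted p 0.969), a value that ran from -0.24 without DMSO replicate 1 to -0.05 without DMSO replicate 2.

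slc4a11.L, a member of the bicarbonate carrier family that is linked to proton and ammonia movement in mammals, stood the other way. It gave 6.60, 6.71 and 6.30 with DMSO, 6.47, 6.32 and 6.36 with TCDD, and 6.88, 7.18 and 7.02 with FICZ. The FICZ arrays lay above all 6 others. The limma log2 difference was 0.49 from DMSO (SE 0.14, adjusted p 0.257) and 0.65 from TCDD (95% interval 0.34 to 0.95, adjusted p 0.151).

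slc8a1.S encodes the sodium-calcium exchanger that removes calcium from the cell. Its values were 7.53, 8.18 and 7.49 with DMSO, 7.52, 7.85 and 7.76 with TCDD, and 8.17, 8.42 and 8.30 with FICZ. DMSO replicate 2 lay at the level of the lowest FICZ array, and the other DMSO arrays lay with TCDD. By limma the log2 difference of FICZ from DMSO was 0.57 (SE 0.17, adjusted p 0.272), and from TCDD it was 0.59 (95% interval 0.23 to 0.95, adjusted p 0.497). Without DMSO replicate 2 the difference from DMSO was 0.79 and passed, with an adjusted p of 0.0079. With any other DMSO or FICZ array left out it ran from 0.45 to 0.63 and did not pass (limma adjusted p 0.404 to 0.746).

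The sulfate carrier gene slc13a4l.S had 6.328, 6.248 and 6.264 with DMSO, 5.998, 6.064 and 6.203 with TCDD, and 6.018, 5.546 and 6.162 with FICZ. Both ligand groups lay below the DMSO arrays, by -0.19 (adjusted p 0.969) and -0.37 (adjusted p 0.667) on the log2 scale. Without FICZ replicate 2, the lowest array, the FICZ difference was -0.19. slc26a6, an anion exchanger named after its values were seen, differed by -0.09 and -0.02. The remaining ion carriers, slc4a1.L, the iodide carrier slc5a5.L and slc26a4l.L, were below the filter.

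The scaffold gene slc9a3r1 had 3 tested probe sets. slc9a3r1.S gave 10.57, 10.41 and 10.72 with DMSO, 10.67, 10.65 and 10.68 with TCDD, and 10.89, 10.87 and 10.81 with FICZ. All FICZ arrays lay above all others, and the log2 difference from DMSO was 0.29 (SE 0.08, limma adjusted p 0.223). The pair of probe sets of slc9a3r1.L differed from DMSO by -0.02 and 0.02 with FICZ. The difference between the copies was not tested.

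**Figure D2:**
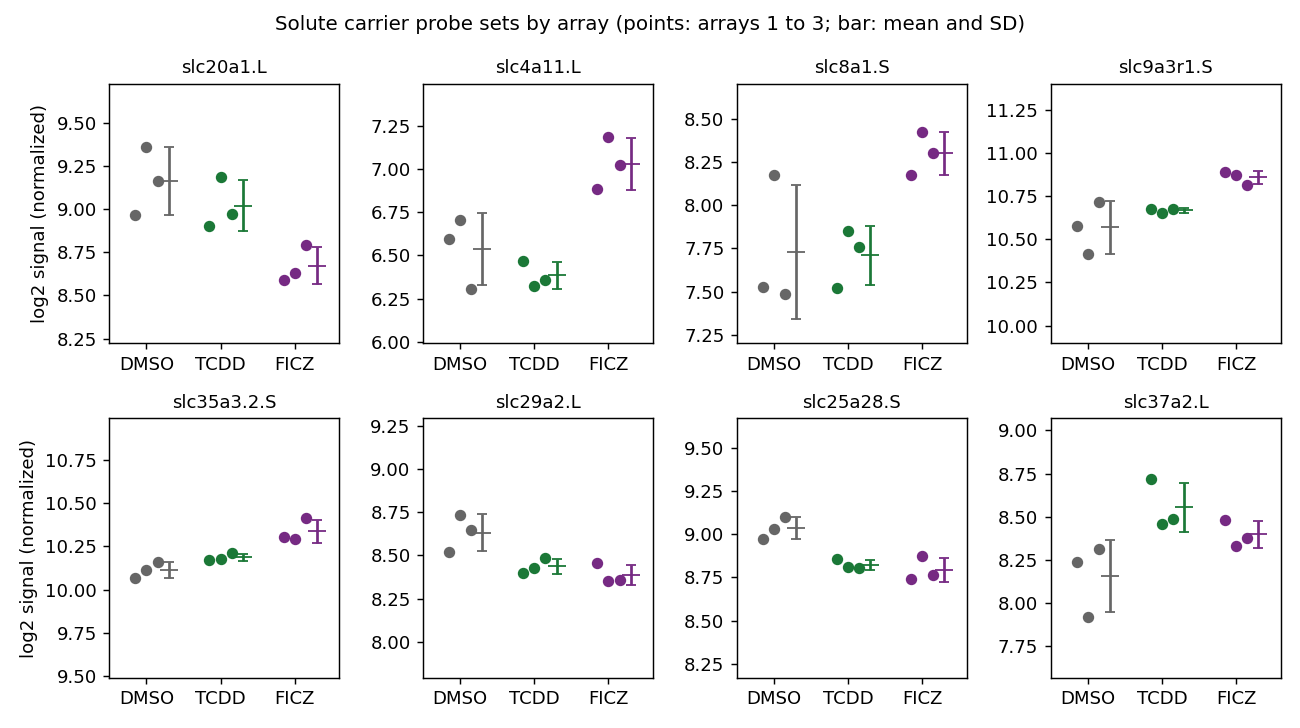
Normalized log2 signal of 8 probe sets on each of the 9 arrays, by group (points are arrays, ticks with bars are the mean and SD of 3 arrays). Each panel spans 1.5 log2 units. The panels were chosen from the probe sets named for their smallest p in these same arrays, so groups that lie apart were likely from the choice. In every panel but that of slc8a1.S the 3 FICZ arrays lie apart from all DMSO arrays. They do so in 17.1% of the 76 tested slc probe sets and in 12.2% of all tested probe sets. In slc8a1.S DMSO replicate 2 lies among the FICZ arrays.

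Sugar carriers were seen in 14 probe sets, of which 7 were tested, and 0 passed. slc37a2.L, a sugar-phosphate exchanger of the endoplasmic reticulum, had the smallest unadjusted p of all slc probe sets with TCDD (0.007). It gave 8.24, 7.92 and 8.31 with DMSO, 8.72, 8.46 and 8.49 with TCDD, and 8.48, 8.33 and 8.38 with FICZ. Both ligand groups lay above DMSO, narrowly for FICZ, with log2 differences of 0.40 (SE 0.13, limma adjusted p 0.969) and 0.24 (adjusted p 0.718). Without DMSO replicate 2, the lowest array, the TCDD difference was 0.28.

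The glucose carrier slc2a3.L lay 0.39 above DMSO with TCDD and -0.13 from it with FICZ (adjusted p 0.969 and 0.942). Between the ligands it differed by -0.52 with a 95% interval of -1.12 to 0.08, and by -0.17 without FICZ replicate 2. Its DMSO mean of 4.98 was close to the filter level, and its FICZ mean of 4.85 was under it. slc2a10.S, a glucose carrier of inner membranes, differed by -0.38 with TCDD, a value that ran from -0.64 without TCDD replicate 1 to -0.23 without TCDD replicate 3. The SWEET family member slc50a1.L differed by 0.10 with TCDD and 0.23 with FICZ (adjusted p 0.722). slc45a3.L differed by 0.21 with FICZ (adjusted p 0.848). The untested sugar carriers were slc2a2.L, slc2a4.L, slc2a6.L, both copies of slc2a9, slc37a1.L and the inositol carrier slc5a11.L.

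All 5 carriers of nucleosides, nucleotides and nucleotide sugars were tested, and 0 passed. slc35a3.2.S, of the family that brings UDP-N-acetylglucosamine into the Golgi, gave 10.07, 10.11 and 10.16 with DMSO, 10.17, 10.18 and 10.21 with TCDD, and 10.30, 10.29 and 10.41 with FICZ. Its groups did not overlap, in the order DMSO, TCDD, FICZ, but the steps were small: FICZ differed from DMSO by 0.22 (SE 0.08, limma adjusted p 0.387) and TCDD by 0.07 (adjusted p 0.969).

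The nucleoside carrier slc29a2.L gave 8.52, 8.73 and 8.65 with DMSO, 8.40, 8.43 and 8.48 with TCDD, and 8.46, 8.35 and 8.36 with FICZ. It was lower on all ligand arrays than on any DMSO array, by -0.20 with TCDD (limma adjusted p 0.969) and -0.24 with FICZ (adjusted p 0.587). Its relative slc29a1.S differed by -0.14 and -0.03, and the UDP-galactose carrier slc35a2.L by 0.00 and -0.14.

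slc17a9.L, which loads ATP into vesicles, had the largest differences of all tested slc probe sets from DMSO, 0.76 with TCDD and 0.66 with FICZ. These rest on the DMSO arrays, which gave 5.54, 3.69 and 5.12 with a mean of 4.78, under the filter level. The TCDD arrays gave 5.70, 5.45 and 5.46 and the FICZ arrays 5.75, 5.66 and 4.91, and both groups overlapped with DMSO. Neither difference passed by limma (adjusted p 0.969 and 0.739), and the TCDD difference was 0.21 without DMSO replicate 2 and 1.14 without DMSO replicate 1.

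Carriers of zinc, copper and magnesium were measured by 15 probe sets, with 10 tested and 0 past the threshold. None of these 10 had an unadjusted p under 0.05 in any comparison. The iron importer slc25a28 was counted with the mitochondrial carriers, and its .S copy had such a p with both ligands. For the zinc, copper and magnesium carriers the log2 changes with FICZ ran from -0.13 to 0.20, with a median of 0.04. With TCDD they ran from -0.29 to 0.22. The copper importer slc31a1.S was at 9.75 ± 0.23 with DMSO, 9.88 ± 0.08 with TCDD and 9.85 ± 0.09 with FICZ (SD, n = 3). The zinc carrier slc30a6.S, which fills the Golgi, differed by 0.22 and 0.12 with TCDD in its probe sets, and the 0.22 was 0.09 without DMSO replicate 2. slc39a7.L, which releases zinc from the endoplasmic reticulum, differed by 0.03 and -0.13 with FICZ. The magnesium carrier family member slc41a3.L differed between the ligands by 0.49 (95% interval -0.04 to 1.02) in a probe set close to the filter level, and by 0.31 without FICZ replicate 2. The other slc41a3.L probe set, below the filter and not tested, differed the other way between the ligands, by -0.30.

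Mitochondrial carriers of the slc25 family were the largest class, with 25 probe sets, and 23 were tested. The class includes slc25a46.S, which is not known to transport, and leaves out slc25a17 of peroxisomes. None of the 23 passed, and 1 with TCDD and 2 with FICZ had an unadjusted p under 0.05. Of all tested probe sets 3.43% and 7.39% had such a p, so counts this small do not set the class apart. The median log2 change of the class was 0.015 with TCDD and -0.005 with FICZ, and 14 and 11 of the 23 were positive. Several carriers of the core exchange reactions, chosen after their values were seen, are given as examples of small differences. The ADP/ATP carrier slc25a5.L was at 12.54 ± 0.09 with DMSO, 12.59 ± 0.03 with TCDD and 12.53 ± 0.06 with FICZ (SD, n = 3), and its 95% interval for FICZ against DMSO ran from -0.12 to 0.11. The phosphate carrier slc25a3.L was at 11.79 ± 0.05, 11.75 ± 0.05 and 11.76 ± 0.05 in its S1 probe set, whereas its S2 probe set lay near the filter level, at 4.92 with DMSO. The carnitine carrier slc25a20.L was at 9.06 ± 0.08, 9.07 ± 0.02 and 9.06 ± 0.07.

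Mitoferrin 2, the iron importer encoded by slc25a28, had lower means with both ligands in the tested probe sets of both copies, without passing. slc25a28.S gave 8.97, 9.03 and 9.10 with DMSO, 8.86, 8.81 and 8.80 with TCDD, and 8.74, 8.87 and 8.76 with FICZ. No ligand array reached the lowest DMSO array, and the limma log2 differences were -0.21 with TCDD (SE 0.09, adjusted p 0.969) and -0.24 with FICZ (adjusted p 0.535). slc25a28.L differed by -0.12 and -0.25 (adjusted p 0.969 and 0.721), with overlap between the arrays, and a second probe set of it, below the filter and not tested, differed by 0.29 and 0.26.

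slc25a29.L, a carrier of basic amino acids, gave 8.21, 8.12 and 7.81 with DMSO, 8.22, 7.87 and 7.91 with TCDD, and 7.75, 7.49 and 7.74 with FICZ. The FICZ arrays lay below the rest, by -0.39 from DMSO (SE 0.14, limma adjusted p 0.464) and -0.34 from TCDD (adjusted p 1). slc25a46.S, an outer membrane protein that acts in mitochondrial shape rather than as a known carrier, was at 8.27 ± 0.10 with DMSO, 8.27 ± 0.10 with TCDD and 8.06 ± 0.01 with FICZ (SD, n = 3). Its FICZ arrays also lay below the rest (limma adjusted p 0.704 against DMSO and 1 against TCDD). The family member slc25a17, which works in peroxisomes and was also named after its values were seen, differed by at most 0.17 in either copy.

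**Figure D3:**
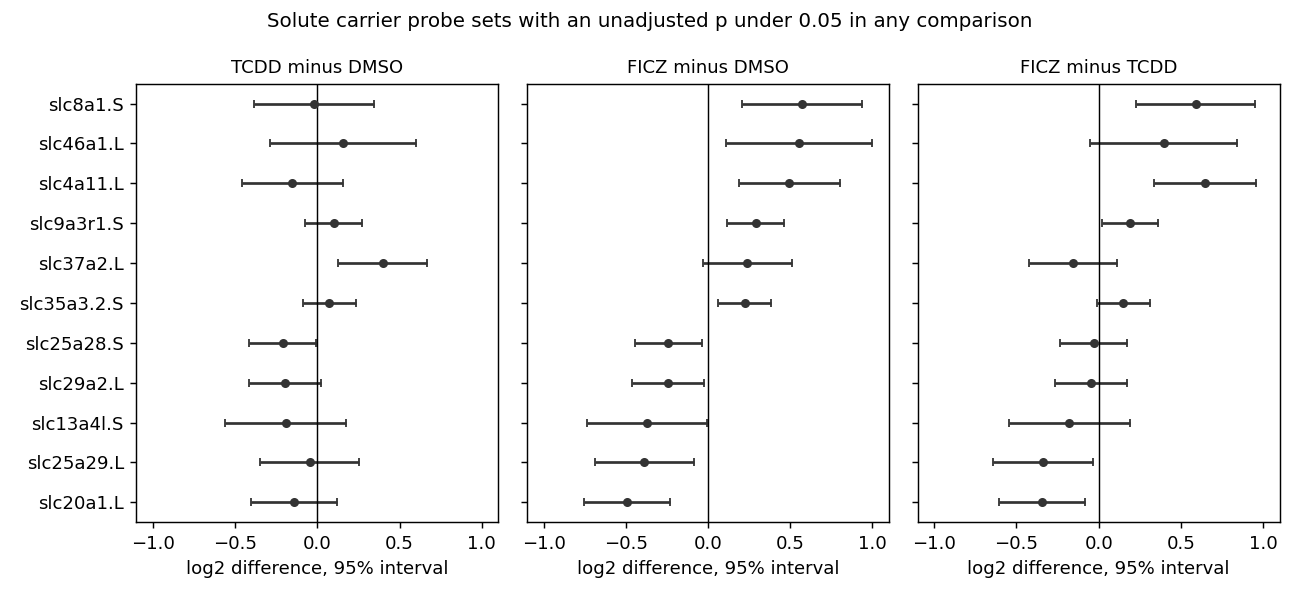
Log2 differences with 95% confidence intervals of the 11 probe sets that had an unadjusted p under 0.05 in any comparison, for TCDD minus DMSO, FICZ minus DMSO and FICZ minus TCDD. None passed after adjustment. The probe sets were chosen by that p, so an interval clear of 0 in some comparison follows from the choice. For FICZ against both other groups the intervals of slc8a1.S, slc4a11.L and slc9a3r1.S lie above 0, and those of slc20a1.L and slc25a29.L lie below it.

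Among the other substrates, amino acid and peptide carriers had 3 of 9 probe sets tested. The neutral amino acid carrier slc43a2.L differed by 0.03 with TCDD and 0.01 with FICZ, and the GABA carrier slc6a13.L by -0.13 and 0.06. The lysosomal sialic acid carrier slc17a5.S, named after its value was seen, differed by -0.06 and 0.02. By family number slc17a5.S would fall with the organic acids and drugs, so the count of 3 depends on its placing. Carriers of organic acids and drugs had 8 of 12 tested, none with an unadjusted p under 0.05. The family number would also place slc13a4l.S here, which had such a p with FICZ and was counted with the ions. The lactate carrier slc16a1.S had differences of 0.33 and 0.22 with TCDD in its probe sets (limma adjusted p 0.969 for each), and -0.01 and 0.06 with FICZ. The 0.33 was 0.17 without DMSO replicate 3, and the 0.22 was 0.12 without DMSO replicate 1. The carnitine carrier slc22a5.L differed by 0.14 and 0.08 with FICZ in its probe sets (limma adjusted p 0.822 and 0.93). slc22a4.L differed by -0.23 (limma adjusted p 0.783).

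Carriers of lipids and vitamins had 10 of 12 tested. The folate carrier slc46a1.L gave 5.53, 5.48 and 5.78 with DMSO, 6.07, 5.50 and 5.68 with TCDD, and 5.99, 6.54 and 5.91 with FICZ. FICZ lay above DMSO on all arrays, by 0.55 (SE 0.21, limma adjusted p 0.497), or by 0.36 without FICZ replicate 2, and overlapped with TCDD. The fatty acid carrier slc27a6.L differed by -0.17 with TCDD and -0.13 with FICZ, the heme carrier slc48a1.L by 0.16 and 0.11, and the acetyl-CoA carrier slc33a1.L by -0.03 and 0.08.

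Copies of 8 genes were both tested. For each copy the tested probe set with the highest mean signal was taken. The signs of the .L and .S changes were the same in 7 of 8 with TCDD, in 4 of 8 with FICZ and in 6 of 8 between the ligands, as a description of changes that did not pass. Each opposite pair with FICZ held a copy close to 0: slc25a11.L at -0.010, slc25a20.L at -0.008, slc48a1.S at -0.005 and slc9a3r1.L at -0.021. The other tested probe set of slc9a3r1.L was at 0.021. These counts thus do not set the ligands apart. Without regard to p, the 3 TCDD arrays and the 3 DMSO arrays did not overlap in 13 of 76 slc probe sets (17.1%), where 7.82% of all tested probe sets were so separated. For FICZ against DMSO this was 13 (17.1%, against 12.2% of all), and for FICZ against TCDD 9 (11.8%, against 10.3% of all).

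At the same dose and time, 76 slc probe sets were compared between the ligands. The largest differences were those of slc4a11.L and slc8a1.S, higher with FICZ, and neither passed. The adjusted p was 1 for each of slc9a3r1.S (0.19), slc20a1.L (-0.35), slc25a29.L (-0.34) and slc35a3.2.S (0.15). A p above the threshold does not show that the ligands act alike on these genes. In this bulk RNA, fewer cells of a type and less RNA per cell cannot be told apart. Of the 5 endothelium and blood markers with a probe set, 3 were tested and pecam1.L, an endothelial adhesion gene, rose with FICZ, from a mean of 6.60 with DMSO to 7.95 (limma adjusted p 0.000104). Its TCDD mean lay between, at 6.92. With FICZ the globins hbg1.L and hba1.S went from 6.115 to 6.256 and from 5.236 to 5.724 and did not pass (limma adjusted p 0.93 and 0.758). Below the filter and not tested, tek.S went from 4.041 to 4.482 and ptprc.L from 2.896 to 2.766. The summed signal of the 5, in log2 units, was 7.67 to 8.02 with DMSO, 7.86 to 8.20 with TCDD and 8.64 to 8.75 with FICZ. Signals were added before the log was taken, and pecam1.L was the highest of the 5. The rise of the sum thus largely repeats pecam1.L and does not by itself show a rise of the whole list. The part of these markers in the FICZ values was not tested. The summed signal of the fibroblast markers was 13.97 to 14.00 with DMSO, 13.89 to 14.03 with TCDD and 13.91 to 13.96 with FICZ. vim.L and vim.S weigh most in it, so it says little of the other markers. All 9 probe sets of this list at or above the filter, for 5 genes, had a lower mean with FICZ than with DMSO, and none passed. Of all tested probe sets 49.5% had a positive change with FICZ. With TCDD the means were also below DMSO, except that of vim.S. In the tested probe sets of col1a1.S, fn1.S and col3a1.S they were lower with TCDD than with FICZ, so the lower means are not particular to FICZ. With FICZ pdgfra.L went from 8.218 to 7.744 and from 7.015 to 6.425 in its probe sets (limma adjusted p 0.704 and 0.184). Its TCDD means lay between, at 8.035 and 6.801.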

How the data were processed

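Total RNA was labelled with biotin (MessageAmp II kit) and hybridised by the submitters, per the labels. Their processing notes name GCOS, without a version; the sources used here give no algorithm, scaling or log step. Deposited values are log2 signals, the base being read from the values (highest 13.627), with 22 to 53 values at 0 per array. Of 15611 probe sets 120 controls were left out. The platform annotation gave 1 symbol to 9304, several to 195 and none to 5992; all 105 slc probe sets matched a reference gene by identifier. Values were quantile normalized, filtered at the 25th percentile of the mean, and fitted with limma 3.58.1 in R 4.3.3 (a mean per group, eBayes with a variance trend; degrees of freedom 6 residual and 7.82 prior; two-sided). With 3 against 3 arrays the smallest p of an exact permutation test is 0.1. The procedure was tested on simulated data. The number of arrays limits the precision, and depth has no meaning for arrays. Figures were drawn with matplotlib 3.10.9.

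Members, lists and tests were chosen with earlier results of these data known. Classes follow the family number, with 8 names moved by their substrate once the symbols were read. Named genes are, per comparison, the 5 smallest p in each direction, up to 4 per family class by p with FICZ, and nephron carriers; others are said to be chosen after their values were seen or are only listed. Deviations of same-numbered arrays had correlations from -0.269 to 0.476, above 0.1 only for DMSO and TCDD replicates 1 (0.476) and 2 (0.27). Arrays of different numbers had correlations from -0.358 to 0.254, so those 2 values were the highest of all. The numbering of FICZ is uncertain, so its correlations cannot decide on a pairing. No pairing was used in the main fit, and whether DMSO and TCDD replicates were paired was not tested. Alternatives were other normalizations, filters, variance models, array weights, a replicate block, 1 probe set per gene and each array left out.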

Additional observations from a re-analysis of the deposited data

How the results depend on the processing

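The count of slc probe sets past the threshold with TCDD against DMSO was 0 under each of the 9 alternatives and without each array. With FICZ against DMSO it was 0 except with array weights, where it was 2 (slc8a1.S at 0.69, adjusted p 0.00335, and slc9a3r1.S at 0.27, adjusted p 0.0431), and when an array was left out, where it ran from 0 to 1; the 1 was slc8a1.S without DMSO replicate 2. With FICZ against TCDD it was 0 except with array weights, where it was 4 (slc4a11.L, adjusted p 0.000807; slc8a1.S, 0.00267; slc20a1.L, 0.0217; slc9a3r1.S, 0.0307). Those weights gave TCDD replicate 3 a weight of 9 and DMSO replicate 2 one of 0.18. Over all probe sets, the calls with TCDD were 3, but 22 with array weights, 1 without the variance trend, 2 with 1 probe set per gene and 3 to 7 without 1 array. With FICZ they were 70, but 154 with array weights, 40 without the trend, 40 with 1 probe set per gene and 26 to 90 without 1 array. Between the ligands they were 24, but 355, 8 and 9 under those settings, 16 without normalization and 11 to 20 without 1 array. Apart from the fewer arrays or probe sets in some of these settings, the cause of these differences was not tested. The replicate block called 0 slc probe sets in each comparison. With FICZ against DMSO slc20a1.L then had a limma adjusted p of 0.0701 and slc8a1.S one of 0.089. Against TCDD slc8a1.S had 0.156. Over all probe sets the block called 4 with TCDD, 88 with FICZ and 28 between the ligands. The block takes FICZ numbers 1 to 3 from the titles, where the descriptions have 3 to 5, so the numbering of FICZ is uncertain. The 30 differences named for their smallest p kept their direction under every alternative in which their probe set was tested. They were chosen by p from these same arrays, so a change of direction was unlikely in advance. Differences named only by class were not followed in this way. The median log2 change stayed within 0.06 of its value, but changed sign in places. With FICZ against DMSO it turned from 0.018 to -0.001 on the deposited values and to -0.024 without DMSO replicate 2 (35 of 76 positive, against 42). Between the ligands it turned from -0.018 to 0.016 with median scaling and to 0.001 without TCDD replicate 2, and was 0 without FICZ replicate 2. The planned count of promoter motifs was not run, since promoter sequences were not used here. Signal over background is not known for any probe set, and values near the filter level (slc17a9.L, slc2a3.L, slc41a3.L) are the least certain.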
